A study of Mus musculus with 6 samples.

Results

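The genes described here are 36 mouse genes of the cell cycle and DNA replication: cyclins and their kinases, the MCM helicase and its loaders, the enzymes that make DNA precursors, the restriction point genes, and the kinases and motors of mitosis. They were listed by symbol, and each was read from 1 probe set of the array, chosen as the brightest on average over all 6 arrays of those that carry that symbol alone. A probe set was listed for 35 of the 36, out of 18193 genes read in the same way. No probe set was listed for Ccnb1, the mitotic cyclin B1, so it was not analysed here.

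All arrays came from bone marrow (BM) cells of healthy C57BL/6 mice. In the mimic group (3 arrays) the cells received a miR-142-3p mimic, a synthetic RNA that acts like the mature microRNA, and in the control group (3 arrays) a control oligonucleotide, labelled CTRL, each at 100 nM with the reagent GeneSilencer. After 5 h both groups were given GM-CSF and IL-6 for 4 days, a culture that yields what the labels call in vitro MDSCs, short for myeloid-derived suppressor cells, which are immature cells of the myeloid lineage able to hold back T cell responses. RNA of the whole culture was hybridised to the Affymetrix MOE430 2.0 array, and no age or sex of the mice is stated. Whether the 3 arrays of a group stand for separate animals or cultures is not stated in the labels either, so every p-value reflects the spread among these arrays alone, which may be technical.

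A cell that divides first loads the MCM2-7 helicase onto replication origins, with Cdc6 and Cdt1 as loaders. D-type cyclins with Cdk4 or Cdk6, and then cyclin E with Cdk2, phosphorylate the retinoblastoma protein Rb1, which frees E2F factors to switch on the genes of DNA synthesis. Later, cyclins A and B with Cdk1 drive mitosis, and the genes of that stage are switched on through promoter elements named CCAAT and CHR. Bone marrow precursors divide rapidly and leave the cycle as they mature, so the messenger RNAs of these genes are widely used as a readout of how many cells in a culture are cycling. In RNA from a whole culture, fewer cycling cells and less RNA per cycling cell cannot be told apart.

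The agent that separates the groups is shown first, since its seed (bases 2 to 8, in capitals) is the part of a microRNA that pairs with messenger RNAs. The mature sequence is given as RefSeq lists it on GRCm38.p6, chr11:87756903-87756925, plus strand, and is 23 bases long. The sequence of the oligonucleotide itself is not in the labels.
mmu-miR-142a-3p: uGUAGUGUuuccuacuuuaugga

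Next, 3 promoters are printed as examples of where the regulatory letters lie, and the letters were not compared between stages. They were chosen after the values were seen: Rrm2 as the 1 listed gene that passed the test, Mcm6 as the MCM gene with the largest difference, and Cdk1 as the kinase of mitosis. Each is the 250 bases before the RefSeq start site (GRCm38.p6), written 5′ to 3′ on the gene's strand. Capitals mark the searched motifs, on either strand. The Rrm2 window is chr12:24708004-24708253 (plus strand), the Mcm6 window chr1:128359706-128359955 (minus strand) and the Cdk1 window chr10:69352913-69353162 (minus strand).
Rrm2: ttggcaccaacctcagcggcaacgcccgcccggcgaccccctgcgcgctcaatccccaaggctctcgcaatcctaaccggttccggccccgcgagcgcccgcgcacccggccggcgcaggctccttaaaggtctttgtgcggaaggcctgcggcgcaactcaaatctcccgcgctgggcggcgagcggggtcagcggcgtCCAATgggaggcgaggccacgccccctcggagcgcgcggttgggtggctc
Mcm6: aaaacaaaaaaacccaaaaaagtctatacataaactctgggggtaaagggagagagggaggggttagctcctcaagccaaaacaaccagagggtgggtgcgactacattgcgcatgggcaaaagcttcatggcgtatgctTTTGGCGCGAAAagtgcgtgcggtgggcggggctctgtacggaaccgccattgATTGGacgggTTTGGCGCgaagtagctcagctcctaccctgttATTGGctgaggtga
Cdk1: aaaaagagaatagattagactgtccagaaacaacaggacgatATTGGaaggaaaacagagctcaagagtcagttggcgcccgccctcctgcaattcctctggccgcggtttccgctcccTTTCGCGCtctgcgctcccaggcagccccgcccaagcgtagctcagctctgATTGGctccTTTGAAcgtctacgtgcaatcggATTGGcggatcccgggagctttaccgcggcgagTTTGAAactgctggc

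The motifs searched were E2F (the letters TTTCCCGC, TTTCGCGC, TTTGCCGC or TTTGGCGC), CCAAT and CHR (TTTGAA). In the Rrm2 window only CCAAT was found, once, with its first base 50 before the start site (-50). The Mcm6 window held E2F letters at -110, -106 and -47, the first pair overlapping on opposite strands, and CCAAT at -57 and -14. The Cdk1 window held CCAAT at -208, -80 and -48, E2F letters at -131, and CHR at -71 and -15. Windows were listed for 28 of the 35 genes, 30 windows in all. E2F letters were in 6 of these 30 windows (20.0%), against 1.86% of all 32851 windows of the same length. CCAAT was in 21 of 30 (70.0%, against 33.8%) and CHR in 7 of 30 (23.3%, against 16.0%). These counts describe letters, not sites that were shown to be bound.

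Across the 35 genes the difference between mimic and control was small. One gene, Rrm2, rose with the mimic and none fell, at an adjusted p under 0.05 (limma, Benjamini-Hochberg over 18193 genes). Over all genes tested, 213 rose (1.17%) and 290 fell (1.59%), and among the 4093 bright genes, those whose log2 values averaged 5 or more, the shares were 3.1% and 3.05%. Thus 1 call in 35 is near the share of the array. At an unadjusted p under 0.05 there were 10 of the 35, and 3101 of the 18193 genes. Among bright genes alone the counts were 10 of 30 listed genes and 1214 of 4093, which are near each other as shares.

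The log2 fold changes (mimic minus control) of the 35 genes ran from -0.52 to 0.71 with a median of 0.04, beside a median of 0.01 over all genes tested. The median size of the change, without its sign, was 0.14 for the 35 genes, 0.12 over all genes and 0.16 over bright genes. The mimic mean was higher for 22 genes and lower for 13, beside 9444 higher and 8749 lower over all genes tested. Over bright genes it was higher for 2018 and lower for 2075. For 10 genes (28.6%) every mimic array was above every control array, against 11.0% of all genes. For 5 genes (14.3%) every mimic array was below, against 11.1%. The brightness of these genes bears on that comparison: 30 of the 35 were bright by that measure, and among all such genes the shares were 19.9% above and 21.4% below. Of the 30 bright genes, 10 lay above (33.3%) and 4 below (13.3%).

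The intervals give how large a change these arrays leave room for. The 95% interval of the log2 fold change lay within -0.5 and 0.5 for 25 of the 35 genes (71.4%), against 66.1% of all genes. It lay within -1 and 1, a doubling or a halving, for 33 (94.3%), against 95.5% of all genes. Cdc6 and Ccne2 were the genes whose interval reached past 1. A p that misses the threshold does not show that a gene was equal in both groups, but for most of these genes a change of more than 1 on the log2 scale lay outside the interval.

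**Figure D1:**
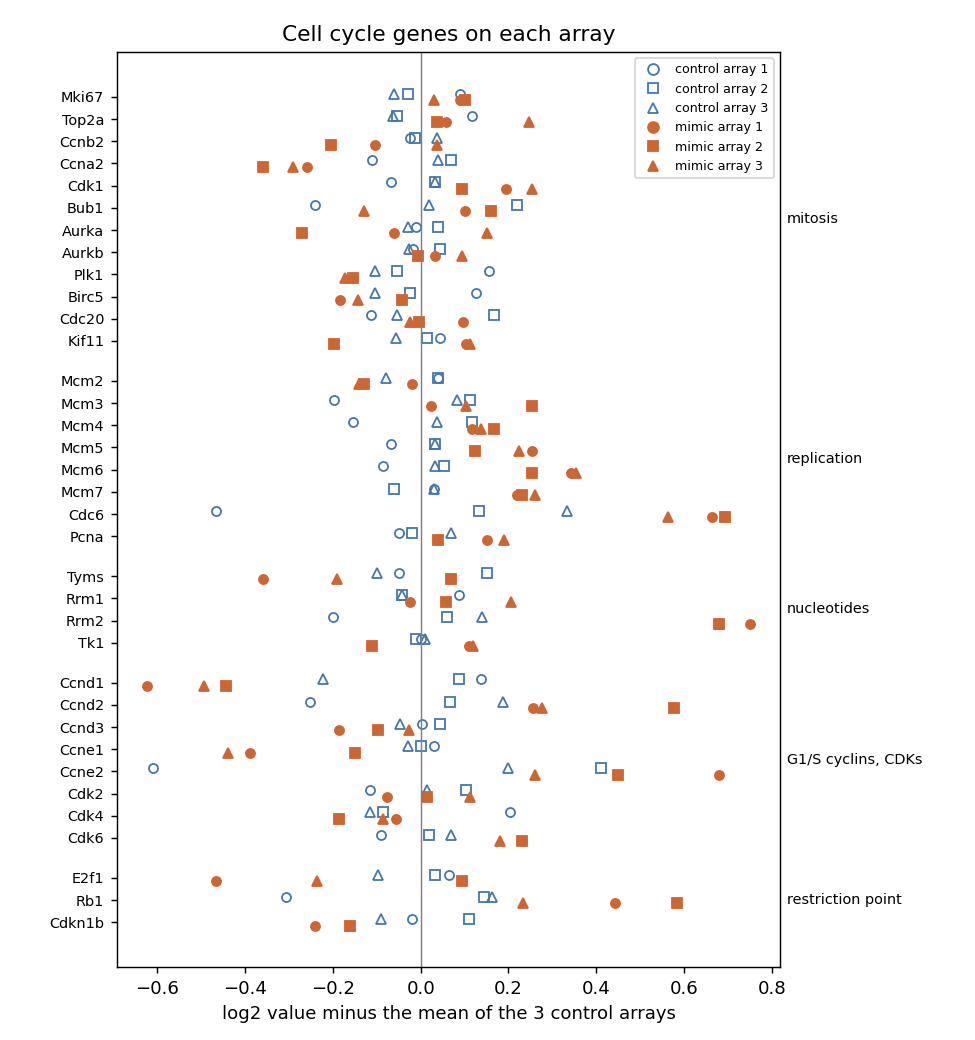
Each row is a gene, grouped by role, and each symbol is 1 array, placed at its deposited log2 value minus the mean of the 3 control arrays (horizontal axis, log2 units; open blue, control; filled orange, mimic). Rrm2 stands to the right on all 3 mimic arrays and Ccnd1 to the left, while most mitotic genes lie within 0.3 of the control mean.

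Nucleotide supply is taken first, since it holds the gene that passed. Rrm2 encodes the small subunit of ribonucleotide reductase, which makes the deoxynucleotides for DNA synthesis, and its messenger RNA peaks in S phase. Its deposited log2 values were 7.74, 8.0 and 8.08 on control arrays 1, 2 and 3 and 8.69, 8.62 and 8.62 on mimic arrays 1, 2 and 3. The groups did not overlap, and the mimic arrays lay closer together than the controls, of which array 1 was the lowest. Rrm2 rose by 0.71 ± 0.11 (SE, n = 3 per group), a 1.63-fold difference, with an adjusted p of 0.0218. The call was lost without control array 2 (adjusted p = 0.0958) or without mimic array 1 (0.129), 2 (0.0898) or 3 (0.0941), while the log2 fold change stayed between 0.61 and 0.78 with any 1 array left out. Over all alternatives its adjusted p ran from 0.00394 to 0.129.

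The other nucleotide genes did not pass the test. Rrm1, the large subunit of the same enzyme as Rrm2, had log2 values of 6.93, 6.80 and 6.80 in controls and 6.82, 6.90 and 7.05 with the mimic, which overlap. Its log2 fold change was 0.08 (95% interval -0.15 to 0.31). Tk1, the thymidine kinase that recycles thymidine in S phase, measured 5.69 ± 0.01 (SD, n = 3) in controls and 5.73 ± 0.13 with the mimic. The difference between Rrm2 and Rrm1 was not itself tested. Tyms, which makes thymidylate, was near the bottom of the scale: its probe set read 0.74, 0.94 and 0.69 in controls and 0.43, 0.86 and 0.60 with the mimic. All 4 Tyms probe sets with that symbol alone had a mean below 1 in each group, and 1 further probe set that lists a second symbol was not used, so no level of Tyms is given.

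The replication genes leaned higher with the mimic, and none passed the test. Of the 8 genes of this role, 7 had a higher mimic mean, 5 had every mimic array above every control array, none had every mimic array below, and the median log2 fold change was 0.17. All 8 were bright, and over all bright genes 19.9% lay above and 21.4% below. Among the 6 subunits of the MCM2-7 helicase, which unwinds DNA at the fork, 5 had a higher mimic mean and 4 lay above the controls without overlap, again beside 19.9% of bright genes. The subunits work as 1 ring, so they are not independent of each other.

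Mcm6 showed the largest difference of the helicase. Its log2 values were 7.80, 7.94 and 7.92 in controls and 8.23, 8.14 and 8.24 with the mimic, with a gap between the groups wider than the range of either. The log2 fold change was 0.31 ± 0.09 (SE) with an adjusted p of 0.127. Mcm7 read 8.21, 8.12 and 8.21 in controls and 8.40, 8.41 and 8.44 with the mimic, again without overlap (log2 fold change 0.24, adjusted p 0.208). Mcm5 read 7.37, 7.47 and 7.47 in controls and 7.69, 7.56 and 7.66 with the mimic (0.20, adjusted p 0.301). Both groups were tight in these subunits, with an SD of 0.08 or less.

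The remaining subunits moved less. Mcm4 read 6.72, 6.99 and 6.91 in controls and 6.99, 7.04 and 7.01 with the mimic; control array 2 reached 6.99, level at 2 decimals with the lowest mimic array. Mcm3 overlapped between groups, with means of 6.34 ± 0.17 (SD) and 6.46 ± 0.12. Mcm2 was the subunit with a lower mimic mean, 6.46 ± 0.06 against 6.56 ± 0.07, with a log2 fold change of -0.10 (95% interval -0.31 to 0.11).

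Cdc6, the loader of the helicase, had the widest spread of this role. It read 4.32, 4.92 and 5.12 on control arrays 1 to 3 and 5.45, 5.48 and 5.35 on the mimic arrays. Every mimic array was above every control, and control array 1 was far below the other controls. The log2 fold change was 0.64 ± 0.19 (SE) with an adjusted p of 0.14, and 0.41 without control array 1. Pcna, the sliding clamp that holds polymerase on DNA, read 9.18 ± 0.06 (SD) in controls and 9.31 ± 0.08 with the mimic, a log2 fold change of 0.12 (95% interval -0.09 to 0.34).

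**Figure D2:**
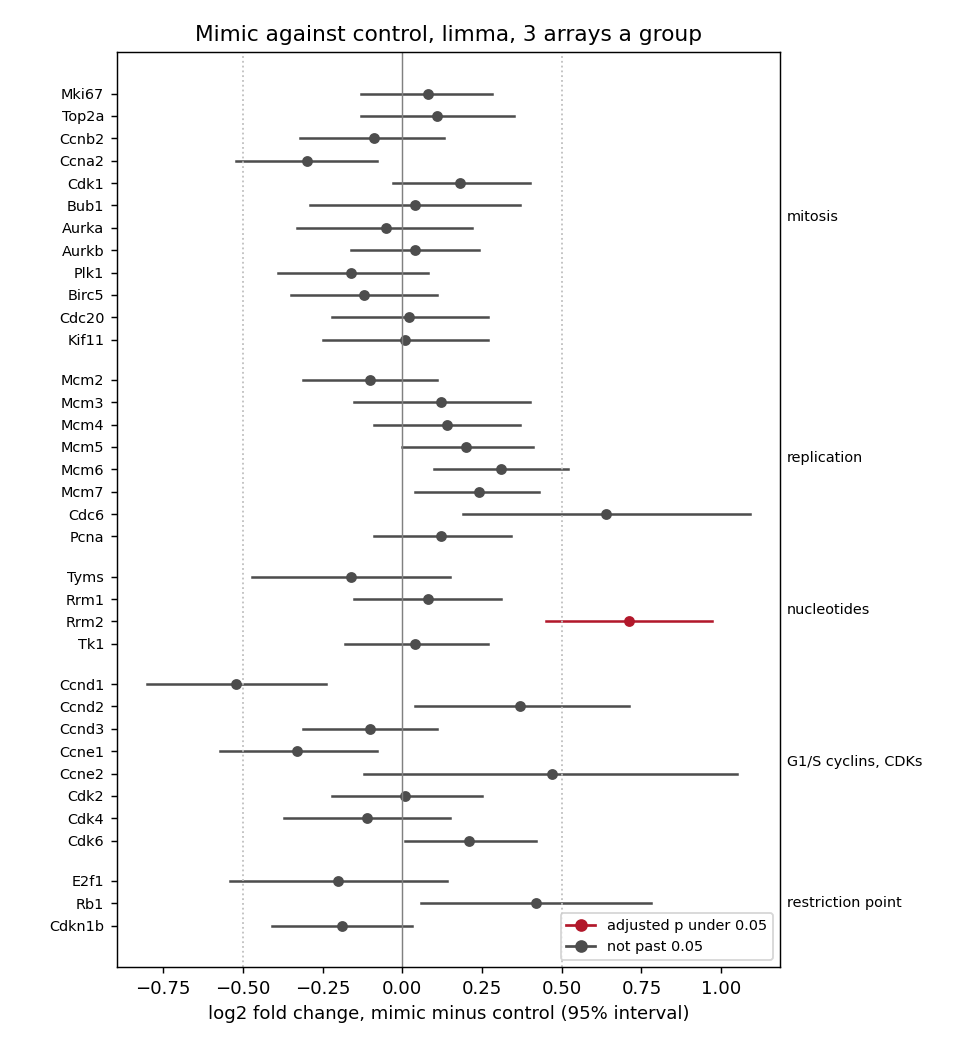
Log2 fold change of each gene, mimic minus control (horizontal axis; point), with its 95% interval from limma (line), grouped by role; dotted lines stand at -0.5 and 0.5, and red marks an adjusted p under 0.05. Rrm2 is the 1 gene in red, at 0.71, and the mitotic genes lie between -0.30 and 0.18.

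The cyclins and kinases of G1 and S phase moved in both directions, and none of the 8 passed. The mimic mean was higher for 4 and lower for 4, with log2 fold changes from -0.52 to 0.47 and a median of -0.04. Their median size of change, 0.27, was the highest of the roles with more than 3 genes.

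Ccnd1, cyclin D1, which carries growth factor signals to Cdk4 and Cdk6, had the largest lower value of all 35 genes. It read 6.41, 6.36 and 6.05 in controls and 5.65, 5.83 and 5.78 with the mimic. The highest mimic array lay below the lowest control. The log2 fold change was -0.52 ± 0.12 (SE) with an adjusted p of 0.0726, and it passed at 0.0424 without control array 3. Over all alternatives the adjusted p of Ccnd1 ran from 0.0243 to 0.262. Its relative Ccnd2, the D-type cyclin used by many blood progenitors, read 6.90, 7.22 and 7.34 in controls and 7.41, 7.73 and 7.43 with the mimic, all above the controls. The log2 fold change of Ccnd2 was 0.37 with an adjusted p of 0.245, and that of Ccnd3, cyclin D3, was -0.10 with overlapping groups. The sign of Ccnd2 depended on the probe set: the next brightest gave -0.13, and the mean of all its probe sets gave 0.01. On the brightest probe sets, Ccnd2 was higher and Ccnd1 and Ccnd3 were lower, and no direction of the 3 as a group is given.

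The E-type cyclins, which start S phase with Cdk2, also pointed in opposite directions. Ccne1 read 5.53, 5.50 and 5.47 in controls and 5.11, 5.35 and 5.06 with the mimic, without overlap (95% interval of the log2 fold change -0.57 to -0.08, adjusted p 0.16). Ccne2 read 2.52, 3.54 and 3.33 in controls and 3.81, 3.58 and 3.39 with the mimic. Its groups overlapped, control array 1 stood well below the other controls, and the log2 fold change of 0.47 became 0.16 without that array.

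Among the kinases, Cdk6 read 6.77, 6.88 and 6.93 in controls and 7.09, 7.09 and 7.04 with the mimic, which did not overlap. Its log2 fold change was 0.21 with an adjusted p of 0.279. Cdk4, which shares the D-type cyclins with Cdk6, measured 6.96 ± 0.18 (SD) in controls and 6.85 ± 0.07 with the mimic. Cdk2, the partner of cyclin E, measured 5.96 ± 0.11 and 5.97 ± 0.10. Both overlapped between groups.

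Of the 3 restriction point genes, none passed. Rb1, the brake that E2F factors escape from, read 4.89, 5.34 and 5.36 in controls and 5.64, 5.78 and 5.43 with the mimic. All mimic arrays were above the controls, with a log2 fold change of 0.42 ± 0.16 (SE) and an adjusted p of 0.221. E2f1, an activator of S phase genes, read 3.56 ± 0.08 (SD) in controls and 3.35 ± 0.28 with the mimic, with overlap. Cdkn1b, the inhibitor p27, read 3.39, 3.52 and 3.32 in controls and 3.17, 3.25 and 3.25 with the mimic, all below the controls (95% interval -0.41 to 0.03, adjusted p 0.373).

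Of the roles in the main list, the mitotic genes had the smallest median size of change, 0.08. All 12 measured genes of this role had a log2 fold change between -0.30 and 0.18, with a median of 0.01, and for 11 the 95% interval lay within -0.5 and 0.5. Mki67, the proliferation antigen Ki-67, read 7.83, 7.71 and 7.68 in controls and 7.83, 7.84 and 7.77 with the mimic, which overlap. Its log2 fold change was 0.08 (95% interval -0.13 to 0.28). Top2a, the topoisomerase that untangles sister chromatids, read 7.78, 7.61 and 7.60 in controls and 7.72, 7.70 and 7.91 with the mimic (0.11, 95% interval -0.13 to 0.35). Both are common markers of cycling cells, and for both a change of 0.5 on the log2 scale lay outside the interval.

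Only Ccna2, Cdk1 and Plk1 did not overlap between groups in this role. Of the 12 genes, 1 lay above the controls (8.33%) and 2 below (16.7%), against 11.0% and 11.1% of all genes. Among bright genes the shares were 19.9% and 21.4%. Ccna2, cyclin A2 of S and G2 phase, read 7.05, 7.23 and 7.20 in controls and 6.90, 6.80 and 6.87 with the mimic, a log2 fold change of -0.30 with an adjusted p of 0.152. Cdk1, its kinase partner in mitosis, read 7.15, 7.25 and 7.25 in controls and 7.41, 7.31 and 7.47 with the mimic (0.18, adjusted p 0.374). Plk1, a kinase that drives entry into mitosis, read 6.34, 6.13 and 6.08 in controls and 6.03, 6.03 and 6.01 with the mimic (-0.16, adjusted p 0.501). On these probe sets a cyclin and the kinase it binds differed in the sign of the change, but neither passed. The other Ccna2 probe set gave 0.08, the same sign as Cdk1.

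The other mitotic genes overlapped between groups. They were the cyclin Ccnb2 (log2 fold change -0.09), the spindle checkpoint kinase Bub1 (0.04), the Aurora kinases Aurka (-0.05) and Aurkb (0.04), Birc5 (survivin, -0.12), Cdc20, which activates the anaphase ubiquitin ligase (0.02), and the spindle motor Kif11 (0.01). Of these, Bub1 had the widest control spread, with an SD of 0.23.

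Many of these genes have several probe sets, which read different stretches of a transcript. The 35 genes have 85 probe sets with 1 symbol, and 26 genes have more than 1. Where a gene had more than 1 probe set averaging 3 or more on the log2 scale, which held for 17 genes, the sign of the log2 fold change differed between them in 11, was higher in all for Aurkb, Mcm4, Mcm5 and Mcm6, and was lower in all for Ccnd1 and Ccne1. Rrm2's brightest probe set was the 1 of the 85 that passed when all probe sets were tested together.

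Rrm2 itself was read by 3 probe sets. The brightest bears the suffix x_at, Affymetrix's mark for probes that may also match other transcripts, with an adjusted p of 0.0395 over all probe sets. The next, without that mark, read 6.98, 7.28 and 7.24 in controls and 7.70, 7.71 and 7.85 with the mimic, a log2 fold change of 0.59 with an adjusted p of 0.0595. The dimmest read 6.82, 6.73 and 6.77 in controls and 6.89, 6.35 and 6.97 with the mimic, a log2 fold change of -0.03. Thus 2 of the 3 were higher on every mimic array and the other overlapped. With the mean of the 3 as the gene's value, the log2 fold change was 0.42 with an adjusted p of 0.0709.

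For Ccnd1, a dimmer probe set read 4.20, 4.88 and 4.54 in controls and 3.43, 3.89 and 3.07 with the mimic, a log2 fold change of -1.08, and the dimmest overlapped (0.06). For Mcm6 the next probe set gave 0.84 and the dimmest, near 0 on all arrays, 0.10. The 4 probe sets of Mcm7 gave 0.24, -0.15, 0.15 and 0.49. For Ccna2 the other probe set gave 0.08, with overlap, against -0.30. The lower value of Ccnd1 and the higher value of Mcm6 were thus seen in their 2 brightest probe sets, while those of Mcm7 and Ccna2 depended on which was read. The probe sets used for Aurkb, Cdc20, Mcm5, Ccne1 and Cdk4 also bear x_at, and those of Mcm3 and Mcm7 bear s_at, for probes shared between transcripts, so these values may hold signal of related transcripts.

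**Figure D3:**
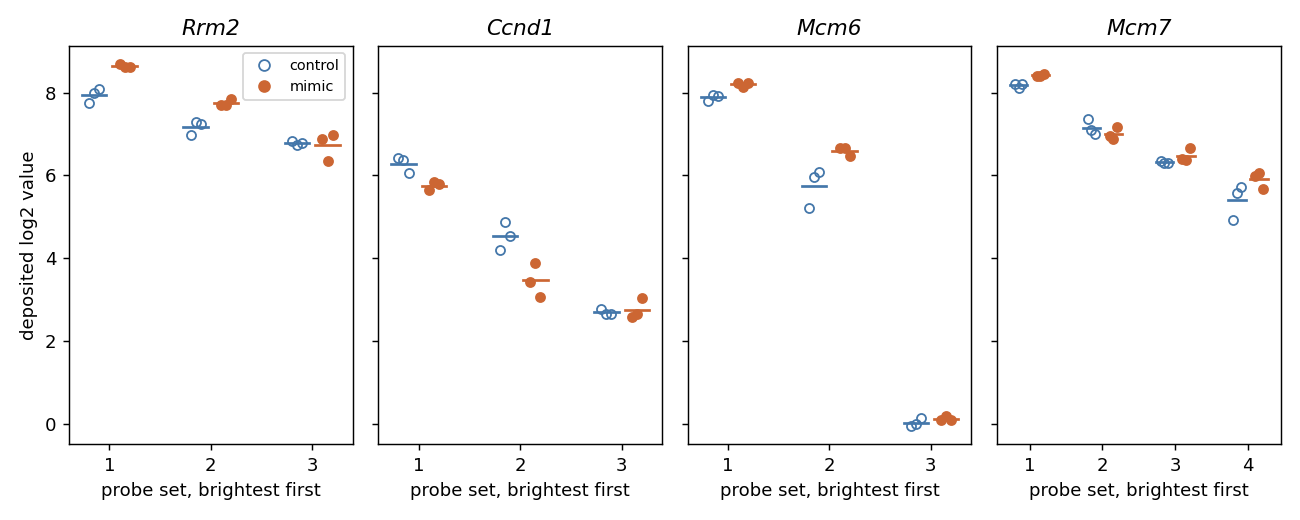
Deposited log2 values (vertical axis) of every probe set with the single symbol Rrm2, Ccnd1, Mcm6 or Mcm7, brightest first (horizontal axis); points are arrays and bars are group means (open blue, control; filled orange, mimic). The 2 brightest Rrm2 probe sets are higher on all mimic arrays and the third overlaps, and the 4 Mcm7 probe sets differ in direction.

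A wider list of 146 further cell cycle genes, chosen by textbook role, was read in the same way, and 144 were measured. Of these, 1 rose and 3 fell, against 1.17% and 1.59% of all genes tested. The median log2 fold change was 0.09, 102 genes had a higher mimic mean and 42 a lower one. Over all genes tested 9444 were higher and 8749 lower, and over bright genes 2018 and 2075. Every mimic array was above every control for 25 genes (17.4%) and below for 16 (11.1%). Among the 81 bright genes of the list, the counts were 20 (24.7%) and 10 (12.3%), beside 19.9% and 21.4% of all genes that bright.

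E2f3, an activator E2F that drives S phase genes, was the gene of this list that rose. It read 3.14, 3.14 and 3.15 in controls and 3.65, 3.50 and 3.80 with the mimic, a log2 fold change of 0.50 with an adjusted p of 0.0481. Cdkn1a, the inhibitor p21 that arrests the cycle, fell, from 8.26, 8.34 and 8.29 to 7.74, 7.89 and 7.87 (-0.47, adjusted p 0.039). Dna2, a nuclease that trims Okazaki fragments, fell from 6.15, 6.17 and 6.08 to 5.69, 5.52 and 5.50 (-0.56, adjusted p 0.0267). Racgap1, a component of the machinery that splits the cell in cytokinesis, fell from 5.59, 5.41 and 5.43 to 5.05, 4.61 and 4.86 (-0.64, adjusted p 0.0455). On these probe sets, the brightest of each gene, the groups did not overlap, and the controls varied by at most 0.10 (SD). The next brightest gave 0.24 for E2f3, -0.55 for Cdkn1a, -0.84 for Dna2 and -0.24 for Racgap1. On it the groups overlapped for all but Dna2. When all probe sets were tested together, the brightest of Dna2 still passed (limma adjusted p 0.0452). Those of E2f3 (0.0749), Cdkn1a (0.0629) and Racgap1 (0.0737) did not. Each of the calls was lost when any 1 of the 6 arrays was left out, with adjusted p between 0.056 and 0.19.

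By role, the genes that license and fire origins had 14 of 16 higher mimic means and none called. Every mimic array was above the controls for 6 of them and below for 1, beside 11.0% and 11.1% of all genes and 19.9% and 21.4% of bright genes. Mcm10, which helps start the fork, had the largest change there (0.35, adjusted p 0.208). Of 26 measured fork, polymerase and chromatin copying genes, 22 had a higher mimic mean and 1, Dna2, fell. None passed among the 21 mitotic kinases, phosphatases and checkpoint genes (median 0.06), where the centriole kinase Plk4 showed the largest change of genes averaging 3 or more on the log2 scale (0.50, adjusted p 0.48), or among the 14 kinetochore genes (0.14), led by Cenpk (0.68, adjusted p 0.138). Plk4 overlapped between groups, with control array 1 at 4.09 and the other controls at 5.26, and gave 0.11 without that array. The median size of change of those 21 mitotic genes was 0.28, and 33.3% of their intervals lay within -0.5 and 0.5. Of 19 spindle and cytokinesis genes (0.02), Racgap1 alone passed. Among 10 chromosome condensation genes none passed (0.09), and the chromatin protein Hmgb2 had the largest change (-0.47, adjusted p 0.202). E2f3 was the 1 call among 18 transcription factors (median 0.11), and Cdkn1a the 1 call among 13 inhibitors (0.04). None passed among 7 other cyclin, kinase and ligase genes, led by Ccnh, the cyclin of the CDK-activating kinase (0.63, adjusted p 0.175).

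**Figure D4:**
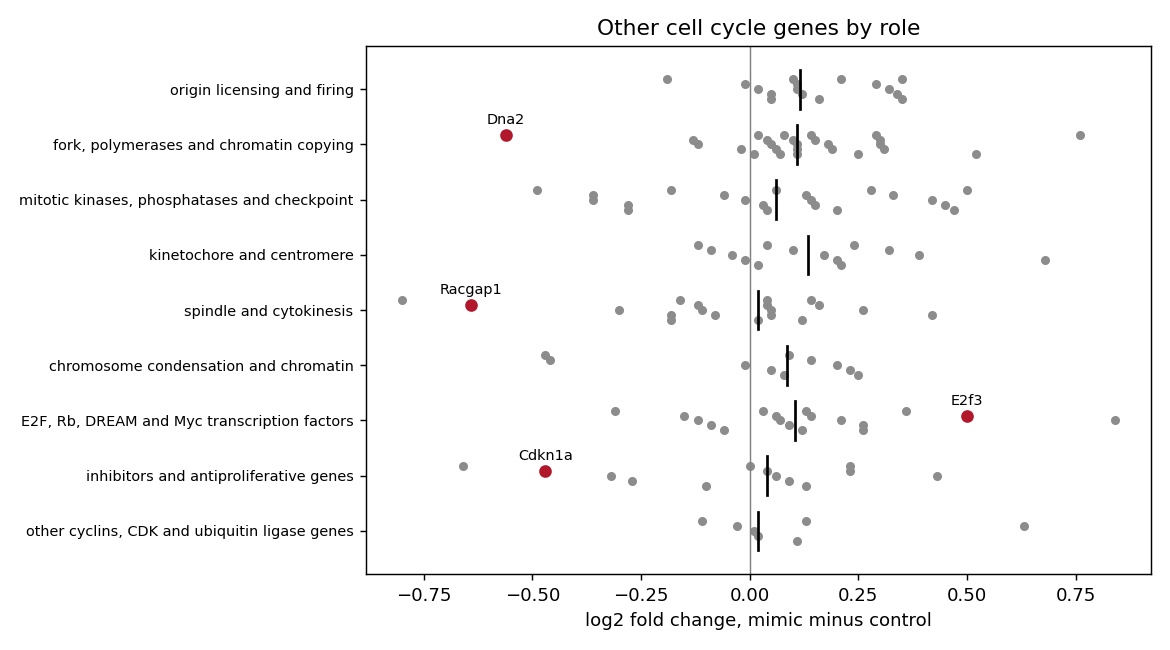
Log2 fold change, mimic minus control (horizontal axis), of the 144 further cell cycle genes, one point a gene, in 9 roles; black bars are medians and red marks an adjusted p under 0.05. The medians lie between 0.02 and 0.14, and E2f3 (0.50), Dna2 (-0.56), Racgap1 (-0.64) and Cdkn1a (-0.47) are named.

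More calls were made when dim genes were left out of the test. When only the 4093 bright genes were tested, 7.11% of them rose and 8.55% fell. Of the 30 genes of the main list that entered, Rrm2 and Mcm6 rose (Mcm6 at an adjusted p of 0.0358), and Ccnd1 (0.0243) and Ccna2 (0.0471) fell. Over all alternatives the adjusted p ran from 0.0358 to 0.321 for Mcm6 and from 0.0471 to 0.61 for Ccna2. Of 81 genes of the wider list, 6 rose (Cdt1, Gins1, Rfc1, Dnmt1, Mad2l1 and Myb) and 4 fell (Dna2, Racgap1, Cdkn1a and Btg2). Those not called over all genes are named for these counts, after their values were seen. The 6 of 81 that rose are near the 7.11% of the array, and the 4 of 81 that fell are below its 8.55%. The share of the main list called, 2 of 30 each way, is near those of the array.

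Other features of the arrays moved beside these values. Control array 1 was the control farthest from the other controls in 20 of the 35 genes. It was the lowest control in 17, among them Rrm2, Mcm6, Cdc6, Ccnd2, Ccne2 and Rb1, and the highest in 12, among them Ccnd1 and Mki67. Control array 3 was the lowest in 15. Of the mimic arrays, array 2 was the farthest from the other mimic arrays in 16 genes, array 3 in 12 and array 1 in 7. Marker lists of cell types also differed between the groups, and their calls stand beside 1.17% of all genes that rose and 1.59% that fell (3.1% and 3.05% of bright genes). The summed linear level of 6 measured neutrophil precursor markers, cells that divide, was 2353 to 3899 in controls, lowest in array 1, and 5891 to 5939 with the mimic, and 2 of the 6 rose (Elane and Ctsg). Of 10 dendritic cell markers 8 fell, with sums of 1890 to 4066 in controls and 802 to 829 with the mimic. Of 8 monocyte and macrophage markers 1 rose and 4 fell, with sums of 1601 to 1653 and 1360 to 1446. The 7 stem and progenitor markers summed to 40 to 59 in controls and 67 to 76 with the mimic, none passed, and Mecom was below 1 on all arrays. Gata2, Kit and Hoxa9 weigh most in the sums of this list. Cd34 had a lower mimic mean with overlapping groups (-0.15), and the others of the list had a higher one. Of 5 mast cell and basophil markers 2 rose, with sums of 323 to 578 and 735 to 816. Of the 7 erythroid markers, also of a dividing lineage, Gata1 rose (0.85, adjusted p 0.0203) and Car2 fell (-1.39, adjusted p 0.0237). Their sums were 282 to 287 in controls and 288 to 312 with the mimic. Tfrc, which averaged 7.71 and 7.98, weighs most in these sums. Klf1 averaged 1.21 and 1.2, and Hba-a1 and Alas2 were below 1 on all arrays, so the sums say little of the other markers. The part of these lists in the values of Rrm2 and the replication genes was not tested. Mature neutrophil markers (10 measured, 1 fell) summed to 13910 to 16773 in controls and 17204 to 17484 with the mimic. Within that list Mmp8 was the gene that fell (-0.95, limma adjusted p 0.0166). Mmp9 (-0.48) and Csf3r (-0.25) were also lower without passing, and all other measured genes of the list had a higher mimic mean. S100a8, S100a9 and Ngp were bright on all arrays and weigh most in the sums. Cxcr2, a receptor of mature neutrophils, averaged 2.16 in controls and 2.32 with the mimic. Eosinophil markers (5 measured, 1 rose) summed to 60 to 149 and 193 to 202, and B cell markers (5 measured, 1 fell) to 78 to 116 and 61 to 73. T and NK cell markers (6 measured, none passed) summed to 19 to 29 and 41 to 47. In that last list Nkg7 had by far the largest change (1.63). Cd3e (-0.08) and Cd3g (-0.22) were lower, and Cd8a, Cd4 and Ncr1 changed by 0.12 or less.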

How the data were processed

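Per the labels' protocols, RNA was isolated with Trizol, and biotin was added in a transcription reaction of 16 h. The deposited values are on a log2 scale, 1 per probe set and array. The submitters' processing notes name affy and RMA. The log base was taken from the values and the floor is not stated: values ran from -0.39 to 12.29, 52.6% were below 1, and column medians were 0.84 to 0.92. The number of arrays limits the precision. Of 45101 probe sets, 64 were controls, 34945 had 1 symbol, 932 several and 9160 none listed. Symbols were updated through RefSeq (34741 matched).

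limma 3.58.1 in R 4.3.3 (lmFit, eBayes, two-sided, no covariate) compared the groups over 18193 genes with Benjamini-Hochberg adjustment at 0.05, after a check on simulated data. Marker sums add 2 to the power of each log2 value. The listed genes, the wider list and the markers were chosen with earlier results of these data known. Of the wider roles, genes that passed are named (at most 3 a role), otherwise the largest change at a mean log2 of at least 3. Promoters and microRNA sequence are from RefSeq GRCm38.p6. Alternatives were a replicate block, leaving out arrays, filters, other probe set choices, normalisations and variance models.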

Additional observations from a re-analysis of the deposited data

How the results depend on the processing

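Against 17 alternatives, 15 of them planned, 32 of 44 named genes kept their sign, 24 of the 35 listed genes among them, and no sign that turned belonged to a call. The signs that turned, as log2 fold changes, were as follows. With the mean of all probe sets they were Top2a -0.08, Cdc20 -0.01, Kif11 -0.24, Mcm2 0.12, Rrm1 -0.14, Ccnd3 0.01, Cdk6 -0.12 and Hmgb2 0.02. With the probe set of largest variance they were Top2a -0.26, Cdc20 -0.17, Kif11 -0.70, Mcm2 0.33, Mcm3 -0.19, Rrm1 -0.33, Ccnd3 0.05, Cdk6 -0.52 and Hmgb2 0.22. With array weights they were Bub1 -0.03, Cdc20 -0.01 and Cdk2 -0.07, and with median centring Kif11 -0.00. With 1 array left out they turned within Bub1 -0.08 to 0.15, Aurka -0.16 to 0.05, Cdc20 -0.03 to 0.11, Kif11 -0.05 to 0.11 and Cdk2 -0.05 to 0.06. Without both control array 1 and mimic array 3, an alternative added after seeing the data, they were Cdc20 -0.01, Kif11 -0.02 and Cdk2 -0.09.

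Of the listed genes, 1 rose; the count was 2 among genes of mean log2 at least 5, and 0 with the mean of all probe sets, without both arrays, and 0 to 1 with 1 array left out. None fell; the count was 1 at a mean of at least 3, with the mean of all probe sets, or with trend and robust variance, 2 at a mean of at least 5 or with array weights, and 0 to 1 with 1 array left out. Of the wider list, 1 rose, E2f3. The count was 2 at a mean of at least 3 or with array weights (E2f3 and Myb in each). With trend and robust variance it was also 2, but these were Mad2l1 and Myb. At a mean of at least 5, where E2f3 was too dim to enter, it was 6. It was 0 with the mean of all probe sets, the probe set of largest variance or without both arrays. It was also 0 with all probe sets tested (the other added alternative). With 1 array left out it was 0 to 1, the 1 being Myb (without control array 1). In that list 3 fell: Dna2, Racgap1 and Cdkn1a. The count was 4 at a mean of at least 5 (with Btg2) or with array weights (with Kifc1). With quantile normalisation it was 2 (Dna2 and Cdkn1a). It was 1 with the mean of all probe sets or with all probe sets tested (Dna2 in each). With the probe set of largest variance it was also 1, but this was Btg1, and none of the 3 was called. Without both arrays it was 0. With 1 array left out it was 0 to 1, the 1 being Kifc1 (without control array 1). The median log2 fold change of the listed genes, 0.04, was 0.01 with the mean of all probe sets and 0.01 without both arrays. The causes were not tested.

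The replicate block left 0 listed genes rising (Rrm2 0.71, limma adjusted p 0.0559; 8 at an unadjusted p under 0.05), and 0 rising and 0 falling in the wider list. Deviations of same-numbered arrays from their group means correlated at -0.13, 0.34 and -0.30 across 7662 genes. With 3 arrays a group these deviations are tied to each other, so the values cannot show whether the shared numbers pair the samples. Over the whole array, limma called no gene in the fits that lacked control array 2 (2564 genes at an unadjusted p under 0.05), mimic array 1 (2343) or mimic array 3 (2746). Nor was any gene called without both control array 1 and mimic array 3 (3255).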
